A study of Ciona robusta with 8 samples.

Results

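The 166 gene models described here were already detected in sorted trunk ventral cells of the sea squirt Ciona robusta at 15 hours post fertilization (hpf) and stood at a much higher level at 18 hpf. They were chosen from 15232 gene models by their read counts scaled to the total of each library (CPM, counts in 1000000). A model was taken when its mean over the 4 libraries of 15 hpf was 2 CPM or more, its mean over the 4 libraries of 18 hpf was at least 4 times that mean, and its lowest library of 18 hpf lay above its highest library of 15 hpf. Of the 15232 models, 9720 met the first condition, 185 the first and the second, and 169 all 3. Of these 169, 3 are among 14 identifiers that the rule sets aside, which left 166. The choice used the change with time in both guides together, so that change is described and not tested. The rule did not use the difference between the guides, and that difference was tested. The test ran on the same libraries as the choice, and the spread between replicates was unequal over the groups. How far the choice itself shifts the difference between the guides was not tested. Earlier results of these data were known when the models were chosen, so the test of the guides is not independent of them.

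Trunk ventral cells are the progenitors of the heart and of the pharyngeal muscles in ascidian larvae. They migrate into the trunk and then divide asymmetrically, giving rise to heart precursors and to cells that go on to form further heart precursors and the muscle of the atrial siphon. Tcf is the DNA-binding protein through which canonical Wnt signalling reaches its target genes. With beta-catenin it activates transcription, and without beta-catenin it can repress it.

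The libraries form 4 groups of 2: cells collected at 18 hpf from embryos in which CRISPR/Cas9 was directed to Tcf by a guide RNA (gRNA), cells with a control gRNA at 18 hpf, cells with the Tcf gRNA at 15 hpf, and cells with the control gRNA at 15 hpf. All groups share the sorting of trunk ventral cells, labelled as multipotent progenitors at both times, and all carry a gRNA. The sources used here do not give the promoters that drove Cas9 and the guides, the share of cells with an edited Tcf gene, or whether libraries with the same guide and time are from separate batches of embryos. The spread behind the p-values is thus that of these libraries and may be technical. The tables identify genes by model number without names, and none of the 15232 identifiers matched the 21486 genes of the RefSeq table used for names. The models are therefore reported by identifier with no role attached, and the label of the sorted cells could not be checked against marker genes.

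Library totals ran from 6207795 to 9556959 counts, so that 1 count was worth between 0.105 and 0.161 CPM. All 166 models passed the filter on low counts, as their levels at 18 hpf require. At 18 hpf none of them had fewer than 10 counts in any library. At 15 hpf 5 and 6 models had fewer than 10 counts in the Tcf libraries, and 16 and 10 in the control libraries. In all, 132 models had 10 or more counts in each of the 8 libraries, and 1 model, KH.C4.439, had no count in 1 library.

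Together the 166 models took a small share of each library, larger at 18 than at 15 hpf. At 18 hpf they held 1.72% and 1.76% of the counts in the Tcf libraries and 1.83% and 2.15% in the control libraries. At 15 hpf they held 0.314% and 0.314% in the Tcf libraries, against 0.289% and 0.252% in the control libraries. The Tcf libraries thus lay below both control libraries at 18 hpf and above both at 15 hpf. The median model stood at 39.9 and 40.7 CPM in Tcf and at 41.0 and 48.3 CPM in control libraries at 18 hpf, and at 6.40 and 7.99 CPM in Tcf and 5.48 and 4.70 CPM in control libraries at 15 hpf. Between 26 and 36 of the 166 models were among the 1000 most abundant models of a library at 18 hpf, and 1 was in each library of 15 hpf. The 10 most abundant of the 166 made up between 32.4% and 40.8% of their summed counts in a library. In bulk samples such as these, a change in the number of cells that express a gene and a change in the RNA per cell cannot be told apart.

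**Figure D1:**
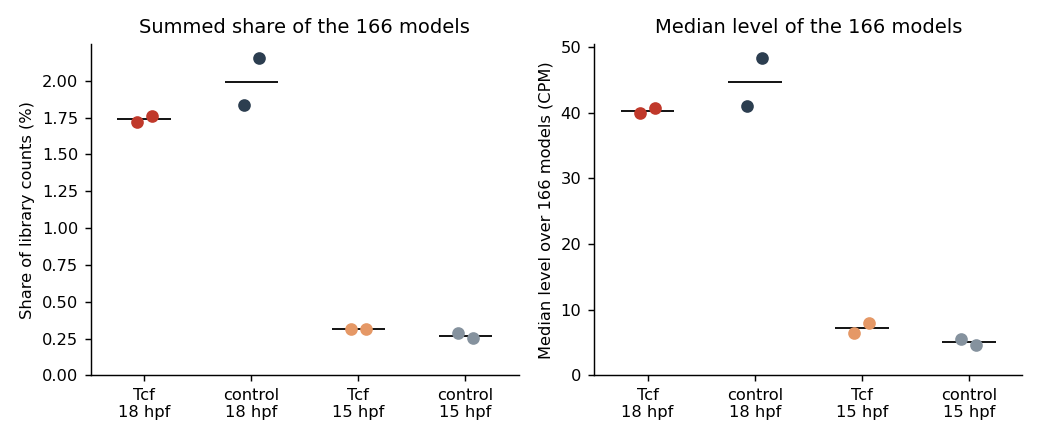
Left, summed share of library counts in percent held by the 166 models; right, their median level in CPM. Each point is 1 library, the black line is the mean of the 2 libraries of a group. The Tcf libraries lie below the control libraries at 18 hpf and above them at 15 hpf in both panels.

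Among themselves the models spanned a wider range of levels than of ratios. The rule bounds the ratio at 4 and the level at 15 hpf at 2 CPM from below, so neither spread is free of the choice. Mean levels ran from 8.27 to 1251 CPM at 18 hpf, with a median of 42.4 CPM, and from 2.04 to 285 CPM at 15 hpf, with a median of 6.29 CPM. The ratio of the mean at 18 hpf to the mean at 15 hpf had a median of 5.81, with the middle 50% of models between 4.62 and 8.15. For 62 models this ratio was between 4 and 5, for 59 between 5 and 8, for 35 between 8 and 16, and for 10 it was 16 or more. By level at 15 hpf, 67 models stood between 2 and 5 CPM, 58 between 5 and 20, 25 between 20 and 50 and 16 at 50 CPM or more. In 141 models the lowest library of 18 hpf was at least 2 times the highest of 15 hpf. Over all 11970 models tested, the median log2 ratio of 18 over 15 hpf was 0.16 with library totals and 0.03 with the scaling factors of edgeR (TMM, which equalize the bulk of the models between libraries). On the second scale the median ratio of the 166 models was 5.30 and 137 of them stayed at 4 or above.

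The most abundant of the 166 at both times was KH.C8.782. It had 1199.6 and 1249 CPM in Tcf and 1164 and 1393 CPM in control libraries at 18 hpf. At 15 hpf it had 279 and 286 CPM in Tcf and 326 and 249 CPM in control libraries. The guides overlapped at both times, and its ratio was 4.34 in Tcf and 4.45 in control libraries. KH.L132.11, next in level at 18 hpf, had 754 and 602 CPM in Tcf and 779 and 1084 CPM in control libraries, and at 15 hpf 92.1 and 58.4 CPM in Tcf and 127 and 17.9 CPM in control libraries. Its control libraries at 15 hpf lay far apart and spanned those of the Tcf guide.

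KH.L153.41 had the highest ratio, 38.3. Its level at 18 hpf was 229 and 222 CPM in Tcf and 173 and 337 CPM in control libraries. At 15 hpf it was 10.7 and 9.41 CPM in Tcf libraries and 4.03 and 0.901 CPM in control libraries, the last from 7 counts. Both Tcf libraries of 15 hpf lay above both control libraries, and the ratio was 22.4 in Tcf and 104 in control libraries, the highest of the 166 in the control guide. KH.L141.43 followed with a ratio of 36.6. It had 71.7 and 73.3 CPM in Tcf and 78.4 and 90.8 CPM in control libraries at 18 hpf, and 0.551 and 1.55 CPM in Tcf and 5.96 and 0.515 CPM in control libraries at 15 hpf. The values at 15 hpf rest on 4 and 12 counts in Tcf and 37 and 4 counts in control libraries, so its ratio is imprecise.

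At the edges of the rule, members and non-members had close values. The lowest ratios inside were 4.001 for KH.C1.1218 and 4.008 for KH.C5.110, and the highest outside were 3.99 for KH.C8.585 and 3.98 for KH.L169.2. KH.C5.110 had a ratio of 4.08 in Tcf and 3.92 in control libraries, with 73.8 and 61.0 CPM in Tcf and 54.8 and 54.5 CPM in control libraries at 18 hpf, and 17.2 and 15.8 CPM in Tcf and 11.8 and 16.1 CPM in control libraries at 15 hpf. The lowest means at 15 hpf inside were 2.04 CPM for KH.C9.534 and 2.05 CPM for KH.C2.1069, and the highest outside were 1.996 CPM for KH.C8.764 and 1.99 CPM for KH.C1.659. The lowest library of 18 hpf exceeded the highest of 15 hpf by a factor of only 1.02 in KH.C1.849 and 1.04 in KH.C9.602, and fell short of it in KH.C9.543 (0.982) and KH.C5.67 (0.969). KH.C1.849 shows how 1 library can place a model there. At 18 hpf it had 53.8 and 87.4 CPM in Tcf and 105 and 149.7 CPM in control libraries. At 15 hpf it had 1.38 and 53.0 CPM in Tcf and 0.483 and 4.25 CPM in control libraries, so that Tcf replicate 2 alone was high. In KH.C9.602 the libraries of 18 hpf split by replicate and not by guide, with 5.28 and 31.4 CPM in Tcf and 5.55 and 31.6 CPM in control libraries.

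Libraries of 1 group differed most at 15 hpf in the control guide. There the 2 libraries differed 2-fold or more in 66 of the 166 models and 4-fold or more in 29. In Tcf libraries at 15 hpf these numbers were 32 and 7. At 18 hpf they were 7 and 1 in Tcf and 12 and 2 in control libraries. The median absolute log2 difference between the 2 libraries, with a prior count of 2, was 0.24 in Tcf and 0.28 in control libraries at 18 hpf, against 0.27 and 0.30 over all 11970 models tested. At 15 hpf it was 0.44 in Tcf and 0.71 in control libraries, against 0.27 and 0.34 over all models tested. By the ratio of CPM with 0.5 counts added to each library, the widest gap between the control libraries of 15 hpf belonged to KH.C12.280, with 54.8 and 20.4 CPM in the Tcf libraries and 55.9 and 1.03 CPM in the control libraries.

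Because the rule asks every library of 18 hpf to lie above every library of 15 hpf, a higher level at 18 hpf in each guide was fixed by the choice of models and is no result. The size of the change in each guide is given as a description. The median ratio of 18 over 15 hpf was 5.08 in Tcf libraries and 7.20 in control libraries. A ratio of 4 or more was reached by 125 models in Tcf libraries, by 151 in control libraries and by 110 in both. The ratio was larger in control libraries in 112 models and larger in Tcf libraries in 54. The smallest ratio in Tcf libraries was 1.91 in KH.C9.776, with 4.64 and 7.34 CPM at 18 hpf and 3.17 and 3.09 CPM at 15 hpf. Its control libraries had 18.2 and 7.17 CPM at 18 hpf and 1.61 and 1.42 CPM at 15 hpf, a ratio of 8.38. KH.C12.521 had the smallest ratio in control libraries, 2.59, with 9.63 and 6.56 CPM at 18 hpf and 3.54 and 2.70 CPM at 15 hpf, beside a ratio of 7.58 in Tcf libraries.

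**Figure D2:**
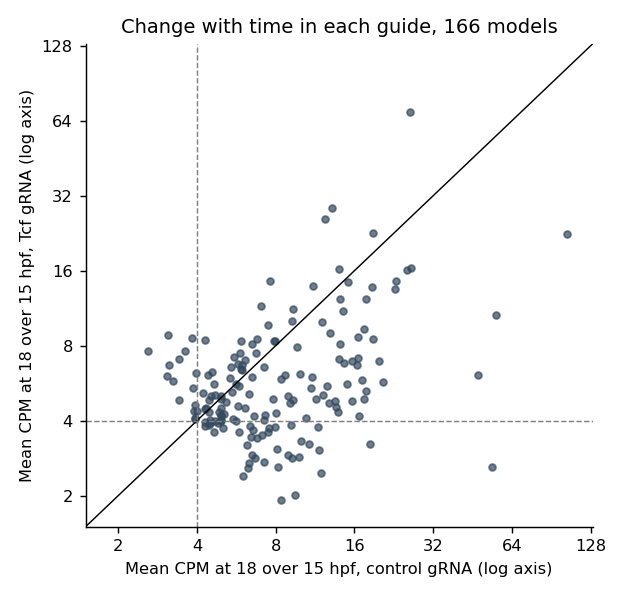
Ratio of mean CPM at 18 hpf over 15 hpf for each of the 166 models, in Tcf libraries (vertical log axis) and control libraries (horizontal log axis), means of 2 libraries each. Dashed lines mark a ratio of 4 and the solid line equal ratios; 112 models lie below the solid line and 54 above it.

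Whether the Tcf guide altered these models at 18 hpf was asked first. The fitted difference, Tcf over control, was negative in 117 of the 166 models and positive in 49, with a median log2 value of -0.25 (median SE 0.33). Over all 11970 models tested the median was 0.01 and 49.2% were negative. Both Tcf libraries lay below both control libraries in 68 members, 41.0% of the 166, against 13.9% of all models tested, and above them in 18 members, 10.8%, against 18.3%. No member passed the adjusted threshold in edgeR's quasi-likelihood test, and 1 of all models did (0.00835%). At an unadjusted p under 0.05 there were 22 members with lower values, 13.3% against 1.84% of all models. With higher values there was 1, 0.602% against 2%. DESeq2 called 2 members, both lower in Tcf libraries, among 14 of all models (0.181%), of which 13 were lower (0.168%). limma-voom called 0 members and 1 of all models (0.00835%). The members share the same 4 libraries and move together, so these counts are not 166 independent observations.

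KH.C8.662 had the smallest p of the 166 at 18 hpf. It had 60.0 and 63.5 CPM in Tcf libraries, against 101 and 117 CPM in control libraries, and at 15 hpf 16.9 and 13.7 CPM in Tcf against 14.5 and 15.7 CPM in control libraries. The guides were apart at 18 hpf and overlapped at 15 hpf. At 18 hpf the log2 fold change of -0.84 (SE 0.17) missed the threshold (adjusted p = 0.684, edgeR; range over 17 alternatives 0.0358 to 1, passing with DESeq2 alone). KH.C1.561 had 63.4 and 82.2 CPM in Tcf libraries, against 119.6 and 155 CPM in control libraries, with a log2 fold change of -0.93 (SE 0.22, adjusted p = 0.879, edgeR; range 0.0496 to 1, again passing with DESeq2 alone). At 15 hpf KH.C1.561 had 16.0 and 10.1 CPM in Tcf against 9.83 and 8.50 CPM in control libraries. Its Tcf libraries thus lay below the control libraries at 18 hpf and above them at 15 hpf. KH.C1.450 had the largest gap between guides at 18 hpf by ratio of means among models whose guides did not overlap. It had 11.9 and 15.6 CPM in Tcf libraries, against 46.1 and 23.0 CPM in control libraries (log2 fold change -1.38, SE 0.42, adjusted p = 1, edgeR).

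Higher values in Tcf libraries at 18 hpf were found in a minority. KH.C10.250, second in level at 15 hpf, had 668 and 649.9 CPM in Tcf and 443 and 613 CPM in control libraries, with a log2 fold change of 0.30 (SE 0.13, adjusted p = 1, edgeR). At 15 hpf its guides overlapped, with 124 and 131 CPM in Tcf and 118 and 131 CPM in control libraries. KH.L8.16 had 31.7 and 43.9 CPM in Tcf and 13.1 and 30.2 CPM in control libraries at 18 hpf, and 5.51 and 2.58 CPM in Tcf and 0.805 and 1.67 CPM in control libraries at 15 hpf. Its Tcf libraries were above the control libraries at both times, as in 4 of the 166 models, 2.41% against 2.92% of all models tested. Its log2 fold change as the mean of both times, 1.23 with an SE of 0.35, missed the threshold (adjusted p = 0.9995, edgeR; range 0.231 to 1).

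At 15 hpf the balance was the other way round. The fitted difference was positive in 111 of the 166 models and negative in 55, with a median log2 value of 0.30 (median SE 0.39), against a median of 0.01 and 51.2% positive over all models tested. Both Tcf libraries lay above both control libraries in 56 members, 33.7%, against 17% of all models tested, and below them in 17 members, 10.2%, against 15.2%. No member passed the adjusted threshold in edgeR's quasi-likelihood test, and 1 of all models did (0.00835%). At an unadjusted p under 0.05 there were 36 members with higher values, 21.7% against 2.64% of all models, and 7 with lower values, 4.22% against 2.41%. DESeq2 called 3 members, all higher in Tcf libraries, among 22 of all models (0.17%), of which 14 were higher (0.108%). limma-voom called 0 members and 4 of all models (0.0334%). Without the filter edgeR called 1 member among 4 models (0.0267%), the only one of them that was higher (0.00666%), and with library totals as scaling 1 member among 2 models (0.0167%), again the only higher one (0.00835%). Without Tcf replicate 2 of 15 hpf it called 1 member among 2 models (0.0156%), the only higher one (0.00781%). Without control replicate 1 of 15 hpf it called 2 members among 4 models (0.0314%), the only higher ones (0.0157%). Without control replicate 2 of 15 hpf it called 1 member among 6 models (0.0471%), of which 3 were higher (0.0236%). Without control replicate 2 of 18 hpf it called 1 member among 6 models (0.0471%), of which 2 were higher (0.0157%). The member or members of each of these fits were higher in Tcf libraries. The 3 fits without a library of 15 hpf leave a group of that time with a lone library, which is assumed to vary like the other groups. The control libraries of 15 hpf, on which these values rest, also had the widest gaps between replicates and the most members under 10 counts, and the part of this in the result was not tested.

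KH.C1.222 came closest to the threshold at 15 hpf. At 18 hpf it had 157 and 168 CPM in Tcf libraries, against 220.3 and 221 CPM in control libraries. Its levels at 15 hpf were 35.8 and 26.3 CPM in Tcf libraries, against 13.4 and 11.6 CPM in control libraries. The log2 fold change at 15 hpf was 1.32 (SE 0.18, adjusted p = 0.0639, edgeR), and it passed in 5 of 17 alternatives (range 8.28e-06 to 0.998). The Tcf libraries were below the control libraries at 18 hpf and above them at 15 hpf, and the ratio of the times was 5.24 in Tcf and 17.7 in control libraries. KH.C9.326 had the same order of libraries, with 244 and 245 CPM in Tcf against 276 and 337 CPM in control libraries at 18 hpf, and 38.8 and 31.6 CPM in Tcf against 19.5 and 19.6 CPM in control libraries at 15 hpf. Its log2 fold change at 15 hpf was 0.85 (SE 0.15, adjusted p = 0.219, edgeR; range 0.00987 to 1). KH.C4.439 had the largest gap between guides at 15 hpf by ratio of means among models whose guides did not overlap. It had 34 and 33 counts in Tcf libraries, 4.68 and 4.25 CPM, against 0 and 8 counts in control libraries (log2 fold change 2.96, SE 0.98, adjusted p = 0.953, edgeR).

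Lower values in Tcf libraries at 15 hpf were less frequent. KH.L153.90 had 18.8 and 21.9 CPM in Tcf and 19.3 and 30.8 CPM in control libraries at 18 hpf, where the guides overlapped. Its levels at 15 hpf were 2.07 and 3.99 CPM in Tcf libraries, against 7.57 and 8.50 CPM in control libraries, with a log2 fold change of -1.39 (SE 0.38, adjusted p = 0.898, edgeR; range 0.33 to 1). KH.C5.433 had 30.3 and 25.6 CPM in Tcf against 20.6 and 27.2 CPM in control libraries at 18 hpf, and 1.93 and 4.38 CPM in Tcf against 4.83 and 10.6 CPM in control libraries at 15 hpf (log2 fold change at 15 hpf -1.28, SE 0.44, adjusted p = 0.953, edgeR; range 0.525 to 1). Both models had fewer than 100 counts in each library of 15 hpf.

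**Figure D3:**
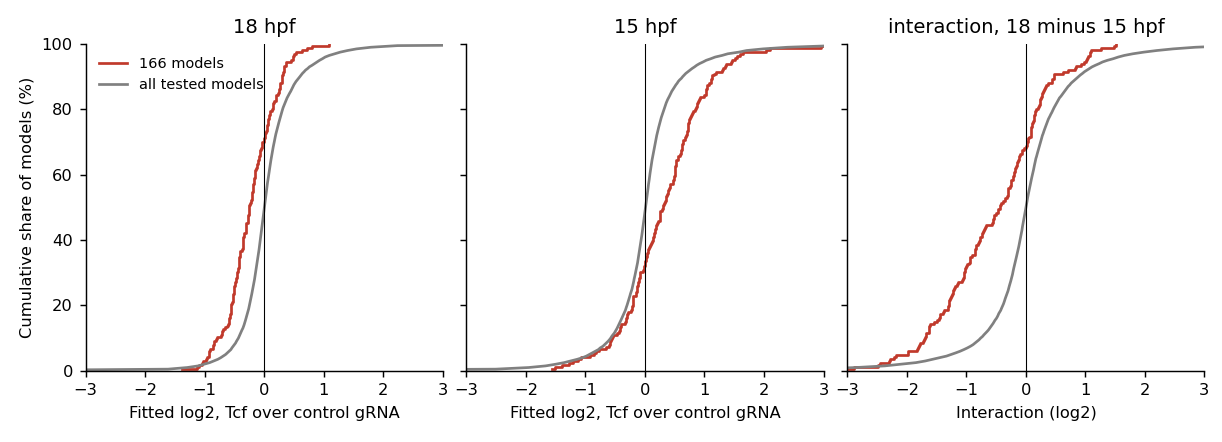
Cumulative share of models in percent by fitted log2 difference, Tcf over control gRNA, at 18 hpf (left) and 15 hpf (middle), and by the interaction of guide and time (right), for the 166 models (red) and all 11970 models tested (grey). At 0 the red curve has reached 70.5% at 18 hpf, 33.1% at 15 hpf and 68.7% for the interaction, and the grey curve close to 50% in each.

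The interaction compares the guide difference at 18 hpf with that at 15 hpf, and is the same as asking whether the change with time differed between the guides. It was negative, that is a smaller increase in Tcf libraries, in 114 of the 166 models and positive in 52. The median was -0.43 on the log2 scale (median SE 0.52), beside 0.00 over all models tested. No member and no other model passed the adjusted threshold in edgeR's quasi-likelihood test (0%). At an unadjusted p under 0.05 there were 44 negative members, 26.5% against 2.56% of all models, and 2 positive members, 1.20% against 2.12%. DESeq2 called 10 members, all negative, among 21 of all models (0.236%), of which 18 were negative (0.202%). limma-voom called 0 members and 0 of all models. When control replicate 1 of 15 hpf was left out, edgeR called 7 models (0.0549%), all of them members. Without control replicate 2 of that time it called 4 models (0.0314%), 3 of them negative (0.0236%) and 1 of these a member, and without Tcf replicate 2 of that time 1 model (0.00781%), a member. Without the filter 1 model was called (0.00666%), a member. All the members called in these fits were negative.

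Among the members KH.C1.222 ranked first by p, with an interaction of -1.78 (log2, SE 0.24, adjusted p = 0.104, edgeR). It passed in 4 of 16 alternatives (range 3.27e-06 to 0.484). KH.C9.326 followed (-1.20, SE 0.20, adjusted p = 0.27, edgeR; range 0.00211 to 0.879, passing with DESeq2 alone). On the positive side stood KH.C5.433 (1.48, SE 0.58) and KH.L141.42 (1.07, SE 0.46), each with an adjusted p of 0.989 in edgeR's test. KH.L141.42 had 39.9 and 42.5 CPM in Tcf and 34.6 and 38.4 CPM in control libraries at 18 hpf. At 15 hpf it had 0.964 and 1.93 CPM in Tcf libraries, against 2.74 and 2.83 CPM in control libraries, from 7 to 22 counts. Its identifier shares the prefix L141 with KH.L141.43. The treatment of multiply mapped reads is not described, and whether reads were split between these models was not tested.

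**Figure D4:**
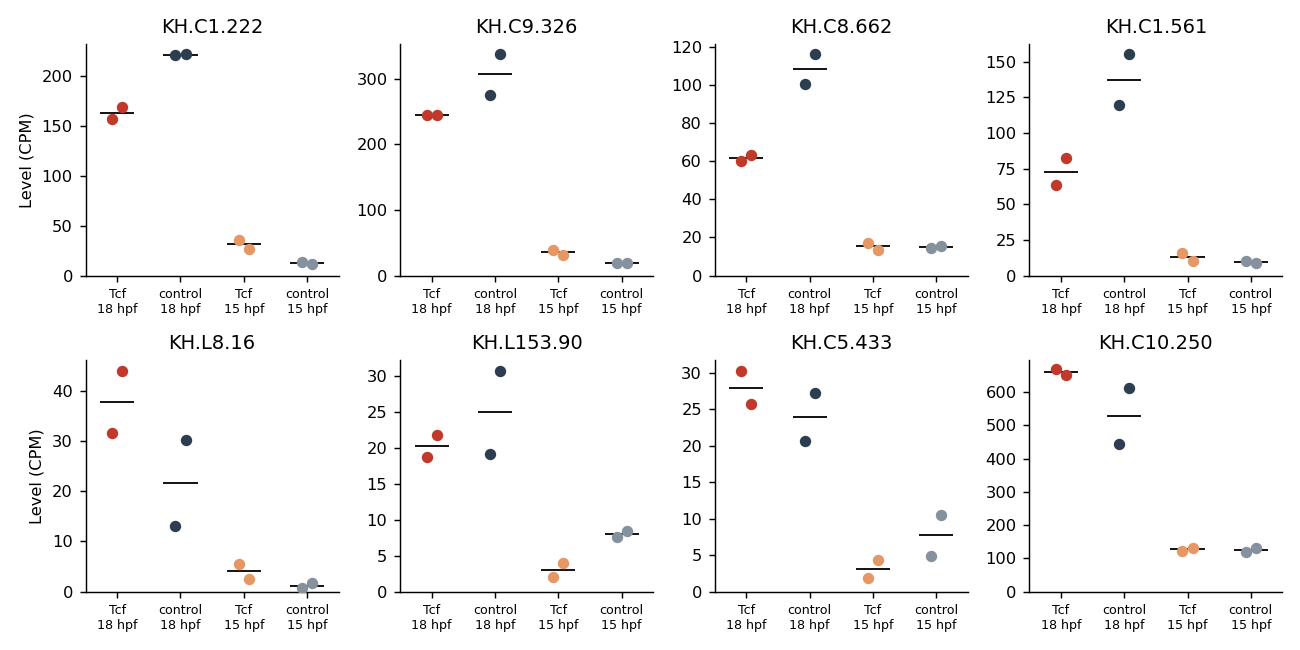
Level in CPM of 8 of the 166 models in each library, with a separate linear axis from 0 for each model. Points are libraries and black lines the means of 2. KH.C1.222, KH.C9.326 and KH.C1.561 have Tcf libraries below control libraries at 18 hpf and above them at 15 hpf. KH.C8.662 and KH.C1.561 had the 2 smallest p-values of edgeR's test among members lower at 18 hpf. KH.L153.90 and KH.C5.433 are lower in Tcf libraries at 15 hpf, and KH.L8.16 is higher in Tcf libraries at both times. KH.C10.250 is higher in Tcf libraries at 18 hpf, and its guides overlap at 15 hpf.

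The models did not all follow 1 pattern. By the sign of the fitted differences, 83 of the 166 were higher in Tcf libraries at 15 hpf and lower at 18 hpf, 34 were lower at both times, 28 higher at both and 21 lower at 15 and higher at 18 hpf. Over all models tested each of these 4 patterns held between 23.8% and 25.9%. With libraries of the guides apart at both times, 28 members had Tcf libraries above at 15 hpf and below at 18 hpf, 16.9% against 2.41% of all models tested, and 2 had the reverse order, 1.20% against 2.81%. The median interaction was -0.42 in the 67 models between 2 and 5 CPM at 15 hpf, -0.54 in the 58 between 5 and 20 CPM, -0.72 in the 25 between 20 and 50 CPM and -0.08 in the 16 at 50 CPM or more. By ratio over time it was -0.22 in the 62 models between 4 and 5, -0.70 in the 59 between 5 and 8, -0.84 in the 35 between 8 and 16 and -0.71 in the 10 above. The classes rest on the level and the ratio that the rule used, from the same libraries as the interaction, so the 2 are not independent. These medians were not tested against each other.

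As the mean of both times the median difference between the guides was close to 0 over the 166 models. The fitted difference was positive in 92 and negative in 74, with a median log2 value of 0.04, and no member passed in edgeR's quasi-likelihood test, against 2 of all models (0.0167%). At an unadjusted p under 0.05 there were 14 members with higher values, 8.43% against 2.22% of all models. With lower values there were 6, 3.61% against 1.9%. DESeq2 called 0 members and 15 of all models (0.169%), and limma-voom 0 members and 1 of all models (0.00835%). The sign of this median depended on single libraries, turning negative when Tcf replicate 2 or control replicate 2 of 15 hpf was left out (-0.01 and -0.02), or Tcf replicate 2 or control replicate 1 of 18 hpf (-0.01 each). With control replicate 2 of 15 hpf left out, edgeR called 1 member among 4 models (0.0314%), the only higher one (0.00785%). The 2 smallest p-values on the positive side belonged to KH.L8.16, given above, and KH.C1.222 (log2 fold change 0.43, SE 0.12), and those on the negative side to KH.L153.90 (-0.85, SE 0.25) and KH.C8.662 (-0.41, SE 0.13), each with an adjusted p of 0.9995 in edgeR's test.

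Other sets chosen by change with time were described in the same way. In the 468 models that met the conditions on ratio and overlap but stood under 2 CPM at 15 hpf, 334 passed the filter on low counts. Over these the median log2 difference between guides was -0.04 at 18 hpf and 0.25 at 15 hpf (median SE 0.71 and 1.03). The median interaction was -0.44, beside -0.43 in the 166 models, but with a median SE of 1.30 against 0.52. At an unadjusted p under 0.05, 8.98% of them were higher at 15 hpf and 7.19% had a negative interaction. In the 372 models that met the other conditions with a ratio between 2 and 4, the median log2 difference between guides was -0.04 at 18 hpf and 0.06 at 15 hpf, and the median interaction was -0.08. At an unadjusted p under 0.05, 8.60% of them were higher in Tcf libraries at 15 hpf, against 2.64% of all models tested, and 8.06% had a negative interaction, against 2.56%. At that cutoff, higher values at 15 hpf and negative interactions were thus more frequent in both sets than among all models tested. Their shares were smaller than in the 166 models. At 18 hpf the fitted difference was negative in 203 and positive in 169 of the 372 models, and negative in 175 and positive in 159 of the 334. Whether the same models of these sets were higher in Tcf libraries at 15 hpf and lower at 18 hpf was not tested. In the 80 models at 2 CPM or more at 15 hpf that were at least 4 times lower at 18 hpf, with libraries of the times apart, the medians over the 79 tested were 0.24 at 18 hpf, 0.06 at 15 hpf and 0.23 for the interaction. The differences between these sets and the 166 models were not tested.

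In the fits that left out 1 library, the list of 166 models chosen with all 8 libraries was kept. Over that fixed list the medians at 18 hpf, at 15 hpf and of the interaction kept their sign. Whether the direction rests on 1 library through the choice of models was not tested. Without any 1 of the 8 libraries, the median difference at 18 hpf lay between -0.32 and -0.19, that at 15 hpf between 0.25 and 0.38, and that of the interaction between -0.64 and -0.38. The median nearest to 0 at 18 hpf came without control replicate 2 of that time, the library with the highest share of the 166 models. At 15 hpf it came without control replicate 2 of that time, the library with their lowest share. Of the 166 models, 120 have identifiers that begin with KH.C, 36 with KH.L and 10 with KH.S, 72.3%, 21.7% and 6.02%, beside 70.8%, 20.2% and 9.06% of the 9720 models at 2 CPM or more at 15 hpf. The prefixes with most members were C1 and C5 with 17 each, out of 866 and 442 models at that level.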

How the data were processed

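Bulk RNA sequencing was carried out on 8 libraries of sorted trunk ventral cells. Between 200 and 800 cells went into lysis buffer and 250 to 2000 pg of total RNA into SMART-Seq v4 cDNA synthesis, followed by an Ovation Ultralow library, per the labels' protocols. No molecular identifiers are described, so read counts cannot be taken as counts of molecules, and low ones may be less precise than they look. The deposited values are read counts per KH2013 gene model, made with TopHat2 2.0.12 and featureCounts, per the submitters' processing notes. Of the genome build, strand setting and treatment of multiply mapped reads, nothing is given in the sources used here. Replicate numbers follow the titles; per the file headers the control libraries at 15 hpf carry them reversed.

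CPM values in the text are 1000000 times the count over the library total, without further scaling. For tests, counts entered edgeR 4.0.16 (R 4.3.3, limma 3.58.1): filterByExpr (minimum count 10) kept 11970 models, TMM scaled the libraries, and a model of 4 group means over all 8 libraries was tested with the robust quasi-likelihood F test. P-values were adjusted by Benjamini-Hochberg over the 11970 models, with a threshold of 0.05. Standard errors are the log2 fold change over the square root of F. Alternatives were DESeq2 1.42.0, limma-voom with quality weights, other scalings, no filter, a replicate block, the libraries of 1 time, and leaving out each library.

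The members and lists were chosen with earlier results of these data known, among them a principal component on which Tcf libraries lay between the control libraries of the 2 times, so the pattern between guides is not independent support for it. Named models were the extremes of ratio and level, the 2 smallest p-values in each direction of each comparison, the largest gaps between guides, and the models nearest each threshold. KH.C12.280, KH.C9.776 and KH.C12.521 were named after their values were seen. Marker lists by gene symbol could not be applied, because the identifiers carry no names.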

Additional observations from a re-analysis of the deposited data

How the results depend on the processing

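The list of 166 models was kept in all alternative fits. Their median differences at 18 hpf, at 15 hpf and in the interaction kept their sign under each alternative run. Number of members: the rule gave 243 models with a minimum of 1 CPM at 15 hpf and 99 with a minimum of 5 CPM. It gave 265 with a ratio of 3 and 104 with a ratio of 5. Without any 1 library it gave 158 to 202, of which 140 to 160 are among the 166. With TMM-scaled CPM it gave 139, of which 135 are among the 166. On Tcf libraries alone it gave 158, of which 117 are among the 166, and on control libraries alone 226, of which 139 are. Members called at 18 hpf were 2 with DESeq2; at 15 hpf 1 with library totals as scaling, 1 without the filter and 3 with DESeq2; in the interaction 1 without the filter and 10 with DESeq2. Without 1 library they numbered 0 at 18 hpf, 0 to 2 at 15 hpf, 0 to 1 as the mean of both times and 0 to 7 in the interaction. Medians without 1 library ran from -0.32 to -0.19 at 18 hpf, 0.25 to 0.38 at 15 hpf, -0.64 to -0.38 in the interaction, and -0.024 to 0.090 as the mean of both times, where the sign turned in 4 of these fits. The cause was not tested.

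Over all models, calls at 15 hpf were 1 in the fit reported and 2 with library totals, 4 without the filter, 2 with the 4 libraries of that time, 4 with limma-voom, 22 with DESeq2 and 1 to 19 without 1 library. At 18 hpf they were 1, and 0 without robust moderation (446 at an unadjusted p under 0.05), 0 with the 4 libraries of that time (563), 14 with DESeq2 and 0 to 6 without 1 library. As the mean of both times they were 2, and 4 without the filter, 1 with limma-voom, 15 with DESeq2 and 1 to 11 without 1 library. In the interaction they were 0, and 1 without the filter, 21 with DESeq2 and 0 to 7 without 1 library.

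The replicate numbers were not taken to pair the libraries: the deviations of same-numbered libraries correlated between -0.17 and 0.06 across models over the 6 pairs of groups. With the replicate block no member was called in any comparison, and the medians were -0.25 at 18 hpf, 0.32 at 15 hpf and -0.42 in the interaction. A block by the header numbers, chosen after seeing the data, called 2 models at 15 hpf and no member. Members under 10 counts were most frequent in the control libraries at 15 hpf, 16 and 10. Gaps between these 2 libraries were also wide in models with more counts, such as KH.L132.11 with 789 and 139.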
